A study of Mus musculus with 12 samples.

Results

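The adipocyte genes described here are 10 genes that fat cells express: Adipoq, Lep, Retn, Cfd, Plin1, Cidec, Fabp4, Pparg, Thrsp and Adrb3. They were read by symbol from a table of 56748 genes, of which 16947 were abundant enough to be tested, and all 10 were among the tested genes. They were chosen because adipocyte genes had differed between pFUS_UC and UC in these same libraries, so their values in that comparison are given as a description, with no test. RNA was taken from kidney tissue of C57bl/6-wt mice, and all 12 samples, 4 in each of 3 groups, came from animals given the tumour drug cisplatin, which is toxic to tubule cells. The pFUS_UC group also received pulsed focused ultrasound and primary mesenchymal stem cells (MSC) from umbilical cord, the UC group received these cells without ultrasound, and the AKI group received cisplatin alone. The study asked whether sonication before the cells helps the acutely injured kidney; neither an uninjured group nor a group with ultrasound alone is among the samples analysed here. Age, sex, cell dose, ultrasound setting, time of sampling and how the kidney was trimmed of fat are not stated in the labels. Nothing states that the samples of a group came from separate animals, so p-values measure the spread between these samples, which may be technical.

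White adipocytes store triglyceride in a single large lipid droplet and release hormones, the adipokines, into the blood. The kidney itself holds few such cells, but it lies in perirenal fat and has fat around its hilum. PPARG, with the C/EBP factors, switches on the adipocyte programme, perilipin 1 and CIDEC coat and enlarge the droplet, and adiponectin, leptin, resistin and adipsin are secreted. Some of these genes are not restricted to fat cells: Fabp4 is also a gene of capillary endothelium and macrophages, and Pparg is also expressed in collecting duct cells.

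The starts of 8 of the 10 genes were matched to promoter sequences of RefSeq on build GRCm38.p6; Fabp4 and Adrb3 had no entry. They gave 11 windows of 250 bases upstream of a start. The windows of Adipoq, Lep, Plin1 and the third start of Pparg are shown because these genes stand for the secreted products, the droplet coat and the regulator of the programme. They lie at chr16:23146286-23146535 (plus strand), chr6:29059971-29060220 (plus strand), chr7:79732777-79733026 (minus strand) and chr6:115421816-115422065 (plus strand). Each reads 5′ to 3′ towards the start, and capitals mark matches, on either strand, to the TATA box TATAAA, the box CCAAT, the nuclear receptor half-site AGGTCA or the C/EBP core TTGCNNAA:
Adipoq: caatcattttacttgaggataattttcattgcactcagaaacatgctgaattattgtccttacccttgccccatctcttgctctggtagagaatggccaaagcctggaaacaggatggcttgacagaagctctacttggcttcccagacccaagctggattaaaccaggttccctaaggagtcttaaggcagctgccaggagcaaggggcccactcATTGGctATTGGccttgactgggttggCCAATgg
Lep: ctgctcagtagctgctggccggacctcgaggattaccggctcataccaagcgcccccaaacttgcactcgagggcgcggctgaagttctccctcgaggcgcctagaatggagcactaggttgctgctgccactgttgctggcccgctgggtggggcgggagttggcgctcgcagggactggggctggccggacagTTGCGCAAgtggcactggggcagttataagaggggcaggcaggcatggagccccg
Plin1: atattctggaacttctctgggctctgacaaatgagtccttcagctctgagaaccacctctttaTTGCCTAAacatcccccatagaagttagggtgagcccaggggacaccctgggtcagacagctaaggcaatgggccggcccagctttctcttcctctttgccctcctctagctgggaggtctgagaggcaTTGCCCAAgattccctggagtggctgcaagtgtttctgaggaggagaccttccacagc
Pparg: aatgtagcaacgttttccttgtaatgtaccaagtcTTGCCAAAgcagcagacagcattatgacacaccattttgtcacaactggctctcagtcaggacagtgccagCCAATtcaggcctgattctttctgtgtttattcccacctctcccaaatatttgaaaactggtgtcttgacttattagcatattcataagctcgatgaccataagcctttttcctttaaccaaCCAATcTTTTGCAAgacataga

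The C/EBP core TTGCNNAA was found in 4 of the 11 windows, those of Lep, Plin1, Cidec and the Pparg start shown, and in 9.57% of all 32841 mouse windows of the same length. The Lep match reads the same on both strands. CCAAT was found in 4 of the 11 windows (33.9% of all), belonging to Adipoq, Thrsp and Pparg. AGGTCA was found in 2 of 11 (14% of all) and TATAAA in 1 of 11 (12.4% of all), in each case at Pparg starts not shown. CACCC was found in 5 of 11 (52% of all). The windows shown thus hold no match to AGGTCA or TATAAA. Of the Pparg starts, only the one shown held the C/EBP core. Matches to the 4 capitalised motifs did not overlap one another in the windows shown. These matches describe the letters of the windows and not binding.

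Library totals were 18.5 to 25.2 M (mega) counts in pFUS_UC, 18.4 to 21.3 M in UC and 17.3 to 23.5 M in AKI. Mitochondrially encoded genes held 7.38 to 15.3% of counts in pFUS_UC, 8.57 to 18.6% in UC and 2.87 to 7.12% in AKI. Over protein-coding genes, the rank correlation between gene length and the deviation of a library's log2 CPM from the mean of all libraries ran from -0.244 to 0.0112 in pFUS_UC, from -0.209 to -0.13 in UC and from 0.157 to 0.377 in AKI. The AKI samples also carry sample codes of another kind than the 8 samples with cord cells, so membership of AKI and whatever that code marks cannot be told apart. Kidney markers were present in every library, with a summed level of 17492 to 31815 CPM in pFUS_UC, 13050 to 19949 CPM in UC and 14527 to 24500 CPM in AKI (CPM: counts scaled by TMM to a library total of 1 M). A count of 3, the limit that a count of 0 allows, corresponded to 0.126 to 0.187 CPM and covers counting error only.

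The 10 adipocyte genes were lowest on average in UC. Of these 10, 8 had mean levels in the order pFUS_UC, AKI, UC, from high to low. Plin1 and Cidec had the order AKI, pFUS_UC, UC. The pFUS_UC and AKI means were close for some genes, at 5.68 and 5.31 CPM for Adipoq and 0.690 and 0.640 CPM for Lep. Of the 10, only Fabp4 differed between pFUS_UC and AKI in the test given below. The summed level of the 10 genes was 197, 74.5, 265 and 191 CPM in the pFUS_UC libraries (replicates 1 to 4), 23.7, 13.3, 73.8 and 59.5 CPM in the UC libraries, and 103, 60.8, 196 and 88.7 CPM in the AKI libraries. Every pFUS_UC library was above every UC library, the lowest pFUS_UC value by a small margin over the highest UC value. The AKI libraries overlapped both groups. Fabp4 and Cfd weighed heavily in the sum, with means of 72.7 and 73.0 CPM of 182 CPM in pFUS_UC. In UC they averaged 23.4 and 9.73 CPM of 42.6 CPM. Fabp4 alone held 49.7 of the 74.5 CPM of pFUS_UC replicate 2. The genes were chosen on pFUS_UC against UC, so nothing is read from the separation of these sums. In bulk tissue, fewer cells of a type and less RNA per cell cannot be told apart.

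**Figure D1:**
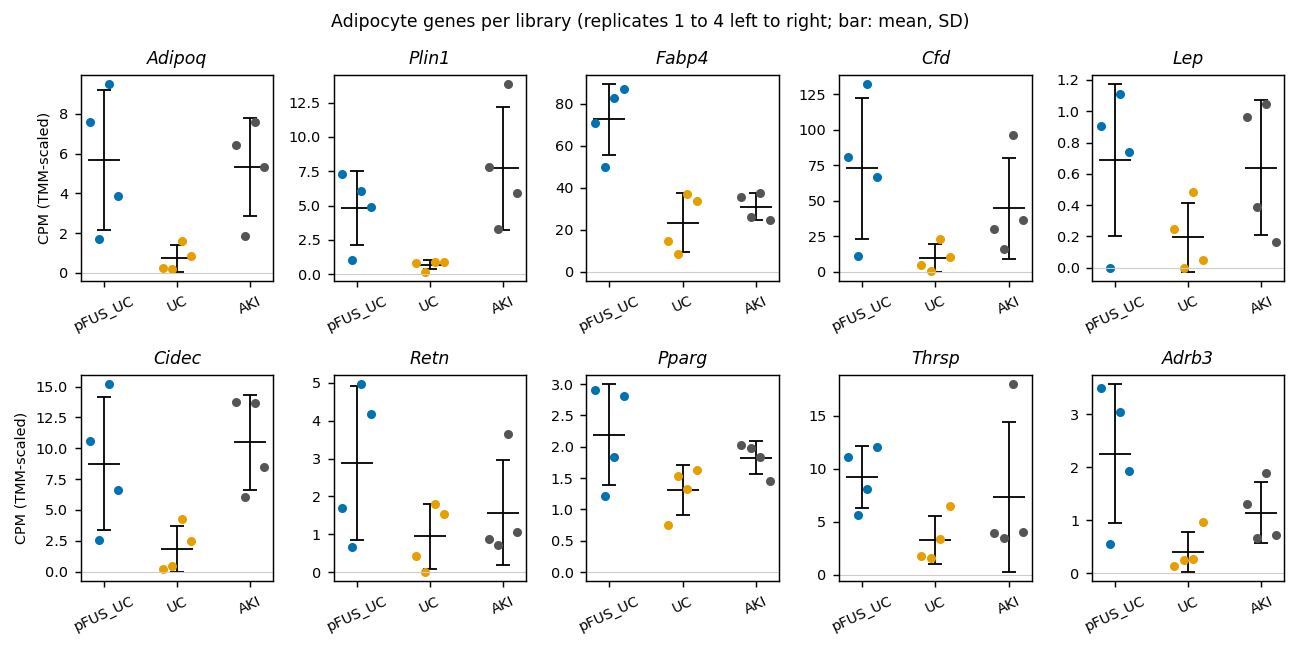
Level of each of the 10 adipocyte genes in CPM (y axis, linear), with 1 point per library, a horizontal bar at the mean and whiskers of 1 SD of the 4 libraries in pFUS_UC, UC and AKI. UC holds the lowest mean of every gene, for example 0.732 CPM for Adipoq against 5.68 CPM in pFUS_UC and 5.31 CPM in AKI.

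In UC against AKI, 4 of the 10 adipocyte genes fell and none rose at an adjusted p under 0.05 (edgeR, Benjamini-Hochberg over all tested genes): Adipoq, Plin1, Cidec and Cfd. All 10 log2 fold changes were negative, with a median of -1.56, where the median over all tested genes was 0.03. In this comparison 48.4% of the tested genes were called, 24.3% lower and 24.1% higher, so change was common and the 4 of 10 is read against that share. Scaling by upper quartiles moved the share of rises among called genes to 60.1%, against 49.8% with TMM, and left 3 adipocyte genes called. The libraries of UC and AKI did not overlap for 3 of the 10, Adipoq, Plin1 and Cidec, and for 41.7% of all tested genes. UC replicates 1 and 2 had mitochondrial shares of 18.6% each, above the other libraries, and the lowest adipocyte sums. With both left out, an alternative chosen after seeing the data, 2 of the 10 were called, Adipoq and Plin1. The comparison of UC with AKI uses the same UC libraries as the comparison on which the genes were chosen.

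In pFUS_UC against AKI, 1 of the 10 adipocyte genes rose, Fabp4, and none fell, while 44% of all tested genes were called, 21.9% higher and 22.1% lower. Fabp4 was also the 1 gene of the 10 whose pFUS_UC and AKI libraries did not overlap, as was so for 40.8% of all tested genes. The median log2 fold change of the 10 was 0.29, against 0.02 over all tested genes. Upper quartile scaling moved the share of rises among called genes to 63.3%, against 49.8% with TMM, with the same count of adipocyte genes called. Without AKI replicate 3, 2 of the 10 were called. The comparison of pFUS_UC with AKI uses the same pFUS_UC libraries as the comparison on which the genes were chosen.

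In pFUS_UC against UC, edgeR called 0 of the 16947 genes (0%), 1342 had an unadjusted p under 0.05, and DESeq2 called 44. The 10 genes, chosen on this comparison, had log2 fold changes of 0.74 to 2.89 with a median of 1.97, where the median over all tested genes was 0.0021. Their libraries did not overlap between pFUS_UC and UC for 3 of the 10 genes, Adipoq, Plin1 and Fabp4, and 3.9% of all tested genes showed no overlap; nothing is read from either share. The comparisons with AKI share the AKI libraries and the fit, so their values are given side by side.

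**Figure D2:**
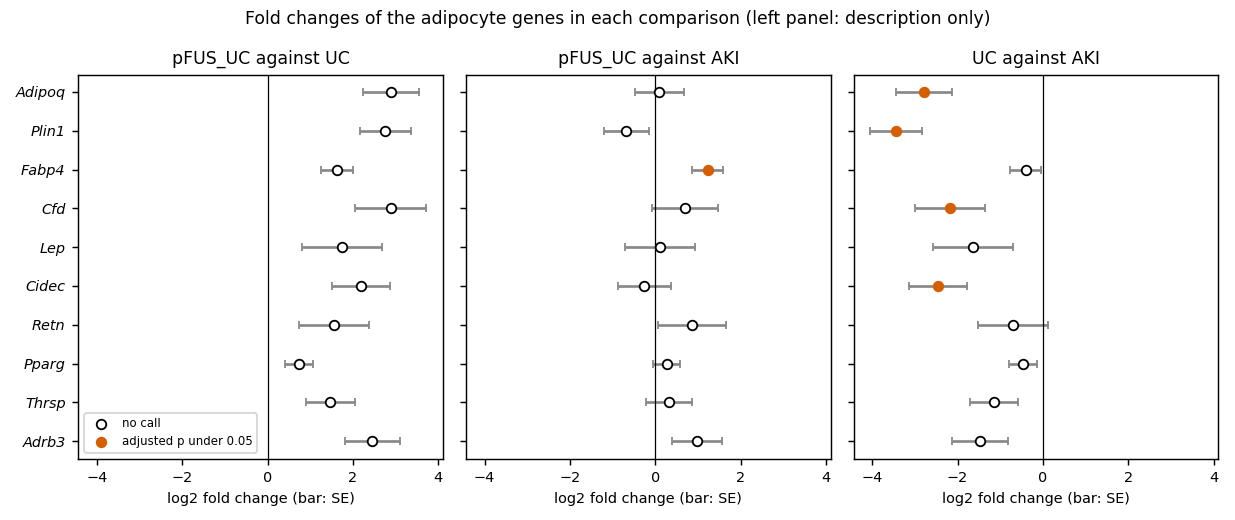
Log2 fold change (x axis) of each of the 10 adipocyte genes (rows) in pFUS_UC against UC, pFUS_UC against AKI and UC against AKI, with bars of 1 standard error. All 10 points lie right of 0 in the first panel, where the genes were chosen, and left of 0 in the last, where Adipoq, Plin1, Cidec and Cfd were called; Fabp4 is the one gene called in the middle panel.

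Among the secreted products, Adipoq (ENSMUSG00000022878, chromosome 16, 22965286 to 22976778, GRCm39) encodes adiponectin, a hormone of fat cells. It was at 7.61, 1.71, 9.5 and 3.89 CPM in the pFUS_UC libraries, 0.249, 0.184, 1.63 and 0.866 CPM in the UC libraries, and 6.45, 1.87, 7.58 and 5.34 CPM in the AKI libraries. All UC values lay below all values of both other groups, although the highest UC and lowest pFUS_UC libraries nearly met. UC replicates 1 and 2 rested on 4 and 3 counts. The log2 fold change was -2.79 in UC against AKI (SE 0.66, adjusted p = 0.00384), 0.10 in pFUS_UC against AKI (SE 0.58, adjusted p = 0.904) and 2.89 in pFUS_UC against UC (SE 0.66). Its UC against AKI value became -3.54 without UC replicate 3 and -2.09 without UC replicates 1 and 2 (adjusted p = 0.0417), and it stayed called under every alternative run. In pFUS_UC against AKI it turned to -0.27 without pFUS_UC replicate 3 and to -0.30 with gene length offsets.

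Cfd (ENSMUSG00000061780, chromosome 10, 79726687 to 79728489) encodes adipsin, or complement factor D, the serine protease that activates the alternative complement pathway. Its levels were 81.2, 11.3, 132 and 66.9 CPM in pFUS_UC, 4.49, 0.798, 22.9 and 10.7 CPM in UC, and 29.98, 16.1, 96.6 and 36.7 CPM in AKI. It spread widely within every group, 11.7-fold between the highest and lowest library in pFUS_UC, 28.7-fold in UC and 5.98-fold in AKI, and the groups overlapped. The log2 fold change was -2.18 in UC against AKI (SE 0.82, adjusted p = 0.0407), 0.70 in pFUS_UC against AKI (SE 0.77, adjusted p = 0.485) and 2.88 in pFUS_UC against UC (SE 0.84). The UC call was lost without AKI replicate 3 (-1.48, adjusted p = 0.155), AKI replicate 4 (adjusted p = 0.0568), UC replicate 1 (0.0963), UC replicate 2 (0.0757), UC replicate 4 (0.0679) or pFUS_UC replicate 1 (0.0508). It was also lost with upper quartile scaling (adjusted p = 0.0505) and without UC replicates 1 and 2 together (-1.42, adjusted p = 0.208).

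Lep (ENSMUSG00000059201, chromosome 6, 29060219 to 29073876) encodes leptin, the hormone that signals the size of fat stores. It was scarce, with 21, 0, 26 and 15 counts in pFUS_UC, 4, 0, 11 and 1 counts in UC, and 20, 7, 25 and 3 counts in AKI. Means were 0.690 ± 0.485 CPM in pFUS_UC, 0.195 ± 0.221 CPM in UC and 0.640 ± 0.431 CPM in AKI (SD, n = 4 each), and all groups overlapped. Neither comparison with AKI passed the threshold: the log2 fold change was -1.65 in UC (SE 0.94, adjusted p = 0.163) and 0.10 in pFUS_UC (SE 0.82, adjusted p = 0.929). Retn (ENSMUSG00000012705, chromosome 8, 3705770 to 3710110) encodes resistin, which mouse fat cells secrete. It was at 1.69, 0.661, 4.96 and 4.18 CPM in pFUS_UC, 0.436, 0, 1.81 and 1.54 CPM in UC, and 0.866, 0.716, 3.64 and 1.06 CPM in AKI. The groups overlapped, with replicate 3 the highest library of each. Its log2 fold change was -0.70 in UC against AKI (SE 0.83, adjusted p = 0.505) and 0.86 in pFUS_UC against AKI (SE 0.79, adjusted p = 0.402). Without AKI replicate 3 these values were 0.15 in UC against AKI and 1.71 in pFUS_UC against AKI, and the value in pFUS_UC against AKI was 0.46 without pFUS_UC replicate 3. In pFUS_UC against UC the log2 fold change was 1.75 for Lep (SE 0.93) and 1.56 for Retn (SE 0.82).

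Among the genes of the lipid droplet and of lipid handling, Plin1 (ENSMUSG00000030546, chromosome 7, 79369966 to 79382651) encodes perilipin 1, which coats the droplet and gates its breakdown. Its levels were 7.27, 1.05, 6.03 and 4.87 CPM in pFUS_UC, 0.810, 0.184, 0.925 and 0.866 CPM in UC, and 7.79, 3.31, 13.9 and 5.90 CPM in AKI. Every UC library was below 1 CPM and below every library of the other groups. The UC levels rested on 13, 3, 21 and 18 counts. The log2 fold change was -3.44 in UC against AKI (SE 0.61, adjusted p = 0.000565), the largest fall of the 10, and -0.68 in pFUS_UC against AKI (SE 0.52, adjusted p = 0.309). In pFUS_UC against UC it was 2.76 (SE 0.60). The UC call was kept under all alternatives, with values from -3.69 to -1.15 and adjusted p from 6.56e-09 to 0.0102.

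Cidec (ENSMUSG00000030278, chromosome 6, 113401595 to 113412721) encodes a protein that fuses lipid droplets into larger ones. It was at 10.6, 2.59, 15.2 and 6.64 CPM in pFUS_UC, 0.249, 0.430, 4.23 and 2.5 CPM in UC, and 13.8, 6.06, 13.7 and 8.46 CPM in AKI. UC lay wholly below AKI, and pFUS_UC replicate 2 lay within the UC range. The log2 fold change was -2.45 in UC against AKI (SE 0.68, adjusted p = 0.00967), -0.26 in pFUS_UC against AKI (SE 0.63, adjusted p = 0.757) and 2.19 in pFUS_UC against UC (SE 0.68). Without UC replicate 3 the UC against AKI value was -3.24, and the call was lost without UC replicates 1 and 2 together (-1.64, adjusted p = 0.0526).

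Fabp4 (ENSMUSG00000062515, chromosome 3, 10269148 to 10273636) encodes the fatty acid binding protein of adipocytes, also present in capillary endothelium and macrophages. Its levels were 70.7, 49.7, 83.0 and 87.4 CPM in pFUS_UC, 14.6, 8.35, 36.9 and 33.8 CPM in UC, and 35.8, 26.2, 37.4 and 24.9 CPM in AKI. All pFUS_UC libraries stood above all others, and UC overlapped AKI. It rose in pFUS_UC against AKI by a log2 fold change of 1.23 (SE 0.36, adjusted p = 0.0153), and stayed called under all alternatives, with values from 1.09 to 1.37 and adjusted p from 0.000504 to 0.0464. The log2 fold change in UC against AKI was -0.40 (SE 0.36, adjusted p = 0.376), and 0.18 without UC replicates 1 and 2. In pFUS_UC against UC it was 1.63 (SE 0.37). The pFUS_UC libraries behind the Fabp4 call are also those on which the genes were chosen.

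Markers of the other cells that express Fabp4 were measured beside it. Of all tested genes, 22.1% fell and 21.9% rose in pFUS_UC against AKI, and 24.3% fell and 24.1% rose in UC against AKI. Of 10 endothelial markers, 1 rose (Egfl7, log2 fold change 0.47, adjusted p = 0.0235) and 5 fell in pFUS_UC against AKI, among them Kdr, the main VEGF receptor, by 2.57 and Pecam1 by 1.42 on the log2 scale (median of the list -0.89); in UC against AKI 7 fell (median -1.59). The Egfl7 call was lost without AKI replicate 1 (adjusted p = 0.0508), AKI replicate 4 (0.0757) or pFUS_UC replicate 2 (0.067). The summed level of the endothelial markers was 295 to 427 CPM in pFUS_UC, 168 to 434 CPM in UC and 598 to 1018 CPM in AKI. Which cells carried the higher Fabp4 level was not tested. Of 10 macrophage markers, 1 fell and none rose in pFUS_UC against AKI, Cd68 by 0.79 on the log2 scale, a call lost without AKI replicates 2 or 4, without pFUS_UC replicates 2 or 4 and with upper quartile scaling (adjusted p from 0.0555 to 0.0799). In UC against AKI 4 of them fell, 2 without UC replicates 1 and 2 and 7 without UC replicate 4, and none rose. The macrophage sum was 192 to 251 CPM in pFUS_UC, 183 to 341 CPM in UC and 160 to 253 CPM in AKI. Cd14 alone held 269 of the 341 CPM in UC replicate 1 and 225 of 321 CPM in UC replicate 3. In UC against AKI 7 of the 10 macrophage markers had a negative log2 fold change and 3 a positive one. None of the markers of either list was at 0 in all 12 libraries.

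Among the regulators, Pparg (ENSMUSG00000000440, chromosome 6, 115337912 to 115467360) encodes the nuclear receptor that drives adipocyte differentiation. It was at 2.90, 1.21, 1.84 and 2.81 CPM in pFUS_UC, 0.748, 1.54, 1.32 and 1.64 CPM in UC, and 2.02, 1.98, 1.84 and 1.45 CPM in AKI. The groups overlapped, and its log2 fold change was the smallest of the 10 in pFUS_UC against UC, at 0.74 (SE 0.33). It was -0.47 in UC against AKI (SE 0.33, adjusted p = 0.253) and 0.27 in pFUS_UC against AKI (SE 0.32, adjusted p = 0.527).

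Thrsp (ENSMUSG00000035686, chromosome 7, 97062145 to 97066937) encodes a nuclear protein of lipogenic tissues that responds to thyroid hormone and feeding. Its levels were 11.2, 5.68, 8.05 and 12.1 CPM in pFUS_UC, 1.74, 1.60, 3.39 and 6.5 CPM in UC, and 3.90, 3.42, 18 and 4.06 CPM in AKI. One AKI library, replicate 3, was far above the other AKI libraries, which all lay below the lowest pFUS_UC library. Over all libraries the log2 fold change was 0.32 in pFUS_UC against AKI (SE 0.55, adjusted p = 0.653), and without AKI replicate 3 it was 1.28 (adjusted p = 0.0339). Its value in UC against AKI was -1.14 (SE 0.57, adjusted p = 0.111); it was -0.18 without AKI replicate 3 (adjusted p = 0.752) and -1.72 without UC replicate 4 (adjusted p = 0.0305). In pFUS_UC against UC it was 1.47 (SE 0.57).

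Adrb3 (ENSMUSG00000031489, chromosome 8, 27715804 to 27740644) encodes the beta-3 adrenergic receptor, through which noradrenaline starts lipolysis in rodent fat. It was at 3.5, 0.551, 3.04 and 1.92 CPM in pFUS_UC, 0.125, 0.246, 0.264 and 0.962 CPM in UC, and 1.30, 0.661, 1.88 and 0.723 CPM in AKI. UC replicate 4 was the one UC library to reach the range of the other groups. The log2 fold change was -1.48 in UC against AKI (SE 0.65, adjusted p = 0.0761), 0.97 in pFUS_UC against AKI (SE 0.58, adjusted p = 0.191) and 2.45 in pFUS_UC against UC (SE 0.64). It passed the threshold in UC against AKI without UC replicate 4 (-2.41, adjusted p = 0.0121), without pFUS_UC replicate 2 (adjusted p = 0.0456) and with DESeq2 (adjusted p = 0.0443).

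The adipocyte genes moved together from library to library within a group. pFUS_UC replicate 2 was the lowest pFUS_UC library for all 10 genes, UC replicates 1 and 2 were the lowest UC libraries for 3 and 7 of them, and AKI replicate 2 was the lowest AKI library for 7. The highest libraries were pFUS_UC replicate 3 for 5 genes, UC replicate 3 for 7 and AKI replicate 3 for 8. The low pFUS_UC replicate 2 had a mitochondrial share of 14.9% and the high pFUS_UC replicate 3 one of 15.3%, whereas in UC both libraries with 18.6% were low. The part of RNA composition in these levels was not tested.

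**Figure D3:**
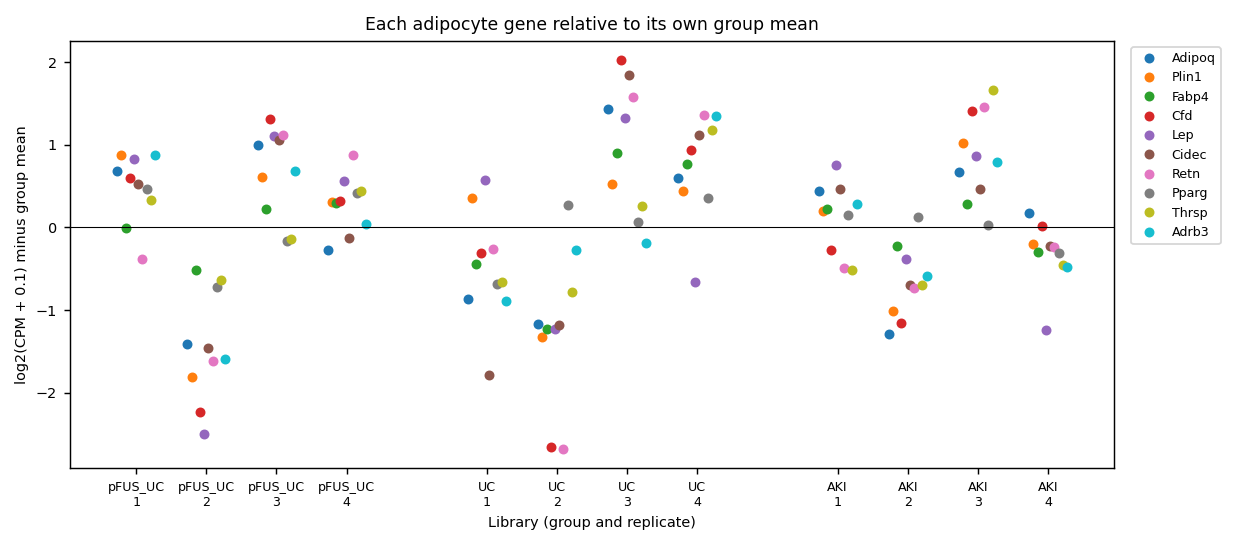
Log2(CPM + 0.1) of each adipocyte gene minus its own group mean (y axis) in each of the 12 libraries (x axis), with 1 coloured point per gene. Most or all of the 10 points lie below 0 in pFUS_UC replicate 2, UC replicate 2 and AKI replicate 2, and most lie above 0 in replicate 3 of each group.

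Over the 12 libraries, Pearson's r of log2 CPM between 2 of the 10 genes was 0.442 to 0.968, with a median of 0.761 over 45 pairs. With each group's mean removed it was 0.199 to 0.947, with a median of 0.697, and 37 of the 45 pairs were above 0.5. These are descriptions of 12 libraries that share their processing. Cfd followed the others most closely, with a median r of 0.832 to the rest after group means were removed, and Adipoq had 0.775. Pparg followed least, with 0.357, and Lep, the scarcest, had 0.588.

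Per length, the same 2 genes led in every group. In the authors' FPKM values, Cfd averaged 79.0 in pFUS_UC, 10.5 in UC and 49.3 in AKI, and Fabp4 16.2, 5.20 and 6.98 FPKM in the same groups. Lep was last of the 10 in each group, at 0.205 FPKM in pFUS_UC, 0.0581 FPKM in UC and 0.192 FPKM in AKI, and Adrb3 stood next to last.

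Proportions among the genes were described as ratios of counts to those of Adipoq. Per count of Adipoq there were 8.74 to 29.1 counts of Fabp4 in pFUS_UC, 22.6 to 58.5 in UC and 4.66 to 14 in AKI, so UC and AKI did not overlap. Per count of Adipoq there were 6.61 to 17.2 counts of Cfd in pFUS_UC, 4.33 to 18 in UC and 4.65 to 12.8 in AKI, which all overlapped. Plin1 had 0.613 to 1.25 counts per count of Adipoq in pFUS_UC, 0.568 to 3.25 in UC and 1.1 to 1.83 in AKI. The same ratio for Cidec was 1 to 2.89 in UC and 1.58 to 3.24 in AKI. It was 0 to 1.78 in UC and 0.134 to 0.481 in AKI for Retn. For Thrsp it was 2.08 to 8.67 in UC and 0.604 to 2.38 in AKI. Of the genes compared with Adipoq, Fabp4 alone had UC and AKI ratios that did not overlap. The UC ratios rest on as few as 3 counts of Adipoq, and no test was made of them.

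Of 37 other genes of white adipocytes, 33 were tested. In UC against AKI 15 fell and none rose, with a median log2 fold change of -0.45, where 24.3% of all tested genes fell and 24.1% rose. In pFUS_UC against AKI 11 fell and 2 rose, with a median of -0.28, where 22.1% of all tested genes fell and 21.9% rose. In pFUS_UC against UC edgeR called none and DESeq2 called 2, with a median of 0.16. Many of these genes work in lipid metabolism of the kidney and other tissues too, and their summed level was 5094 to 7349 CPM in pFUS_UC, 3917 to 6636 CPM in UC and 6681 to 9733 CPM in AKI.

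Acly, Cd36 and Npr3 fell in both groups with cord cells. Acly, which makes cytosolic acetyl-CoA, averaged 88.2 ± 22.5 CPM in pFUS_UC, 78.8 ± 8.48 CPM in UC and 178 ± 37.1 CPM in AKI (SD, n = 4 each), with log2 fold changes against AKI of -1.01 in pFUS_UC (adjusted p = 0.00096) and -1.17 in UC (adjusted p = 0.00028). The fatty acid transporter Cd36 had -0.54 and -0.62 in the same comparisons (adjusted p = 0.00402 and 0.00148). Fasn, fatty acid synthase, had -0.91 in pFUS_UC against AKI (adjusted p = 0.00608), and Abhd5, a co-activator of lipolysis, had -0.56 (adjusted p = 0.00262). Npr3, the clearance receptor for natriuretic peptides, had -1.11 in pFUS_UC and -1.92 in UC against AKI (adjusted p = 0.00213 and 6.64e-05). Cebpa, which encodes C/EBP alpha, had -1.08 in UC against AKI (adjusted p = 0.000349), and the amine oxidase Aoc3 had -1.58 (adjusted p = 0.00187). Neither droplet gene at the head of the list was called against AKI: Plin4 had -0.28 in pFUS_UC and -0.45 in UC, and the hormone-sensitive lipase Lipe had 0.13 and 0.04.

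The 2 genes of this list that rose in pFUS_UC against AKI are named here after their values were seen. Nnat, neuronatin, was at 8.22, 2.48, 15.1 and 7.24 CPM in pFUS_UC, 2.43, 1.04, 3.52 and 0.962 CPM in UC, and 3.80, 1.98, 1.97 and 2.11 CPM in AKI. Its log2 fold change in pFUS_UC against AKI was 1.74 (SE 0.51, adjusted p = 0.0136), with pFUS_UC replicate 2 inside the AKI range; without pFUS_UC replicate 3 it was 1.28 (adjusted p = 0.0597). Sncg, gamma-synuclein, had 0.73 (SE 0.19, adjusted p = 0.00813), and 0.15 with gene length offsets (adjusted p = 0.55).

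The receptors on which adipokines, catecholamines and fatty acids act fell or did not pass the test. Of 12, 7 fell in pFUS_UC against AKI (median -0.46) and 8 in UC against AKI (median -0.58), and none rose in either. The share of all tested genes that fell was 22.1% in pFUS_UC against AKI and 24.3% in UC against AKI. Ppara, the receptor that turns on fatty acid oxidation, averaged 11.4 ± 3.84 CPM in pFUS_UC, 9.17 ± 2.19 CPM in UC and 46.5 ± 10.8 CPM in AKI (SD, n = 4 each), with log2 fold changes against AKI of -2.03 in pFUS_UC (adjusted p = 0.000116) and -2.35 in UC (adjusted p = 4.33e-05). Rxra, the partner of the PPARs, had -0.87 and -0.88 in these comparisons (adjusted p = 0.000466 and 0.000299). Cdh13, which encodes T-cadherin and binds adiponectin, had -1.005 and -1.42 (adjusted p = 0.0121 and 0.00148). The adiponectin receptors had smaller values, -0.39 for Adipor1 and -0.31 for Adipor2 in pFUS_UC against AKI (adjusted p = 0.0295 and 0.0442). Both of these calls were lost without AKI replicates 2 or 4, without pFUS_UC replicates 2 or 3, with gene length offsets and with upper quartile scaling (adjusted p from 0.0748 to 0.231). That of Adipor2 was also lost without AKI replicate 3 (0.109), UC replicate 3 (0.0544) or pFUS_UC replicate 1 (0.0504), with no filter (0.066) and with a filter at 1 CPM in 4 samples (0.0554). The adiponectin receptors had, in UC against AKI, -0.49 and -0.44 (adjusted p = 0.00853 and 0.00769), and these calls were lost without UC replicates 1 and 2 together (adjusted p = 0.118 and 0.114).

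Brown adipocyte genes gave mixed results. Of 14, 9 were tested. In pFUS_UC against AKI 2 rose and 1 fell, where 21.9% of all tested genes rose and 22.1% fell. In UC against AKI 2 rose and 2 fell, where 24.1% of all tested genes rose and 24.3% fell. In pFUS_UC against UC edgeR called none and DESeq2 called 2. Ucp1, the uncoupling protein of brown fat, was at 6.01, 0.937, 1.88 and 4.04 CPM in pFUS_UC, 0.498, 0, 0.484 and 0.192 CPM in UC, and 1.06, 0.110, 2.97 and 2.67 CPM in AKI. It had a log2 fold change of -2.5 in UC against AKI (SE 0.89, adjusted p = 0.033), and UC lay below AKI but for AKI replicate 2. That call was lost without AKI replicate 3 (adjusted p = 0.0943), AKI replicate 4 (0.0787), UC replicate 2 (0.0723), UC replicate 4 (0.0712) or UC replicates 1 and 2 together (0.119), and with limma on log2(FPKM + 1) (0.113) or log2(FPKM + 0.1) (0.0812). Cox8b and Cox7a1, muscle and brown fat forms of cytochrome c oxidase subunits, rose in pFUS_UC against AKI by 2.39 and 1.36 on the log2 scale (adjusted p = 0.000146 and 0.000255). They also rose in UC against AKI by 1.16 and 1.12 (adjusted p = 0.00862 and 0.000588), and both UC calls were lost with gene length offsets (adjusted p = 0.529 and 0.0989), that of Cox8b also without UC replicates 1 and 2 together (0.195). Pank1, which starts coenzyme A synthesis, fell by 0.45 in pFUS_UC and by 0.60 in UC against AKI on the log2 scale (adjusted p = 0.0138 and 0.00218); the pFUS_UC call was lost with gene length offsets (0.148) and upper quartile scaling (0.0712).

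Of 10 genes of adipocyte progenitors and fascia, 8 were tested. Against AKI 5 fell in pFUS_UC (median -0.83) and 6 in UC (median -1.31), and none rose. Falls over all tested genes made up 22.1% in pFUS_UC and 24.3% in UC against AKI. Pdgfra, a receptor of mesenchymal progenitors, had -2.07 in pFUS_UC and -2.10 in UC (adjusted p = 0.00363 and 0.00283). Cd248 had -1.94 and -2.09 in these comparisons (adjusted p = 0.000176 and 7.66e-05). The summed level of the list was 117 to 149 CPM in pFUS_UC, 91.9 to 142 CPM in UC and 201 to 275 CPM in AKI, so for these genes pFUS_UC overlapped UC and lay below AKI.

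Markers of other tissues that a kidney sample could hold were measured beside the adipocyte genes. In pFUS_UC against UC edgeR called 0 of all 16947 tested genes, so nothing is read from the absence of calls among these markers. Against AKI, 44% of all tested genes were called in pFUS_UC and 48.4% in UC. The adrenal genes Cyp11b1, Cyp11b2 and Th had no count in any of the 12 libraries, and 9 of the 12 adrenal markers stayed under 10 counts in every library; their sum was 4.13 to 9.32 CPM in pFUS_UC, 7.23 to 9.09 CPM in UC and 2.85 to 6.5 CPM in AKI, and none of the 2 tested was called, although both were in UC against AKI without AKI replicate 1, and 1 was without pFUS_UC replicate 4. Of 10 skeletal muscle markers, 7 stayed under 10 counts in every library, among them Acta1 and Ckm, and their sum was 5.88 to 13.1 CPM in pFUS_UC, 6.54 to 9.60 CPM in UC and 3.91 to 7.83 CPM in AKI, and none of the 3 tested was called, although 1 was in pFUS_UC against AKI without AKI replicate 2. Of 10 pancreas markers, 8 stayed under 10 counts, and nearly all of the sum, 115 to 168 CPM in pFUS_UC, 114 to 196 CPM in UC and 85.1 to 101 CPM in AKI, came from Cela1, which rose against AKI in both groups; without pFUS_UC replicate 1 or 2 the number called was 2 in both comparisons with AKI. The liver markers summed to 90.7 to 195 CPM in pFUS_UC, 83.4 to 152 CPM in UC and 93.7 to 125 CPM in AKI. Most of this sum came from Cyp2e1, at 61.3 to 177 CPM over the 12 libraries, and Alb was at 2.33 to 14.3 CPM. Of the liver markers 1, Alb, rose in pFUS_UC against AKI by 1.59 on the log2 scale, and 2 were called there without pFUS_UC replicate 1. In UC against AKI, where none was called, 1 was without UC replicate 4 or pFUS_UC replicate 1 or 4. Mesothelial and urothelial markers summed to 40.3 to 58.5 CPM in pFUS_UC, 27 to 84.3 CPM in UC and 16.7 to 30.1 CPM in AKI. Of 7 tested, 4 rose (Upk1a, Upk1b, Upk2 and Krt5) and 1 fell (Lrrn4) in pFUS_UC against AKI, and the same 4 rose in UC against AKI. These counts moved with single libraries: in pFUS_UC against AKI the number called was 2 without AKI replicate 4 or without pFUS_UC replicate 4, and 3 without pFUS_UC replicate 3. In UC against AKI the number called was 0 without UC replicate 3, 1 without AKI replicate 4 and 2 without AKI replicate 1. Of 12 kidney markers, 2 rose and 4 fell in pFUS_UC against AKI, and 3 rose and 5 fell in UC against AKI, where the number called was 4 without AKI replicate 2 and 5 without UC replicate 1. How much of the adipocyte gene level came from fat carried along with the kidney was not tested.

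The genes that followed the adipocyte genes most closely included other genes of fat cells. Likeness was measured as Pearson's r of log2 CPM with the mean standardised level of the 10 genes, over 12 libraries, for 14788 other genes with a mean of at least 1 CPM. Among the 10 nearest were Car3 (0.972), Cidea (0.929), Slc36a2 (0.926), Ifi27l2a (0.905), Trarg1 (0.895), Frat2 (0.88), Postn (0.869), Gid8 (0.865) and Rbp4 (0.865). Of them, Car3 and Trarg1 are on the list of other white adipocyte genes and Cidea, a droplet protein of brown fat, is on the brown list. With group means removed, Car3 (0.959) and Slc36a2 (0.926) came first, and 4 of the 10 nearest were the same genes: Car3, Cidea, Slc36a2 and Ifi27l2a.

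Car3, a carbonic anhydrase abundant in fat cells and muscle, was at 53.7, 8.38, 70.4 and 37.6 CPM in pFUS_UC, 2.74, 1.35, 13.2 and 12.3 CPM in UC, and 40.1, 7.33, 62.4 and 25.8 CPM in AKI. It was lowest in the same libraries as Adipoq, UC replicate 2 and replicate 2 of each other group. Its log2 fold change in UC against AKI was -2.17 (SE 0.76, adjusted p = 0.0294). The call was lost without AKI replicate 1 (adjusted p = 0.0518), AKI replicate 3 (0.0935), UC replicate 1 (0.0738), UC replicate 2 (0.0666) or UC replicates 1 and 2 together (0.187). Trarg1, which takes part in trafficking of the insulin-responsive glucose transporter, was at 4.54, 2.65, 4.24 and 3.0 CPM in pFUS_UC, 1.31, 0.860, 1.72 and 1.92 CPM in UC, and 3.80, 3.31, 3.26 and 3.5 CPM in AKI. UC lay wholly below both other groups, and the log2 fold change in UC against AKI was -1.24 (SE 0.27, adjusted p = 0.00249), called under every alternative. Cidea was at 12.9, 1.82, 4.88 and 6.84 CPM in pFUS_UC, 0.311, 0, 2.42 and 0.674 CPM in UC, and 2.60, 1.27, 3.43 and 1.95 CPM in AKI. Its log2 fold change in UC against AKI was -1.37 (SE 0.78, adjusted p = 0.159), and -2.73 without UC replicate 3 (adjusted p = 0.0146); limma on log2(FPKM + 0.1) also called it (adjusted p = 0.0489).

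**Figure D4:**
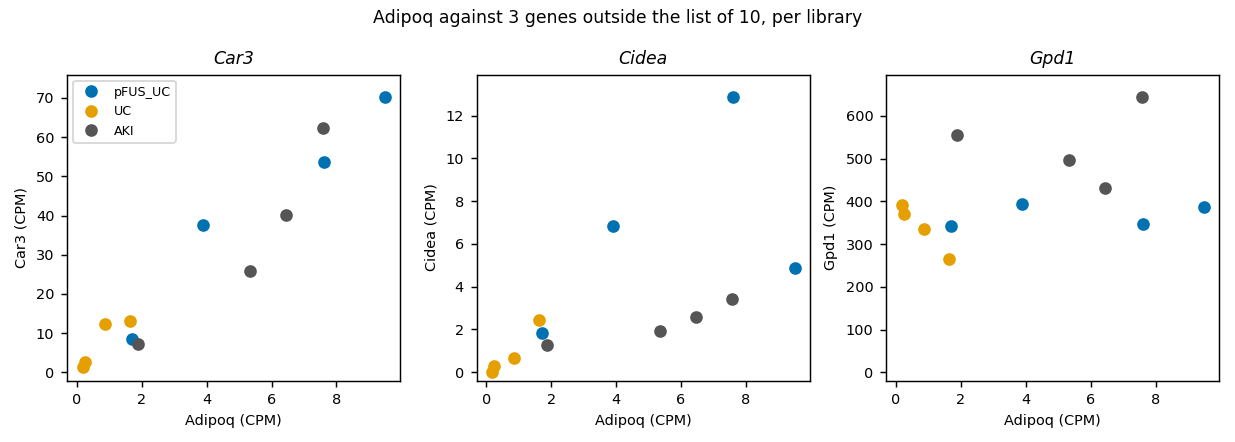
Level of Car3, Cidea and Gpd1 (y axis) against that of Adipoq (x axis), both in CPM on linear axes, with 1 point per library coloured by group. Car3 follows Adipoq over all 12 libraries; Gpd1, an adipocyte gene that the kidney also expresses and that was chosen after its values were seen, averages 367 ± 26.3 CPM in pFUS_UC, 341 ± 55.3 CPM in UC and 532 ± 90.8 CPM in AKI and does not follow it.

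Likeness to the 10 was low for most other white adipocyte genes. With group means removed, the median r to the mean of the 10 was 0.88 for the 10 themselves, which is raised by each gene being part of that mean. It was 0.0985 for the other white adipocyte genes, with a range of -0.699 to 0.959. Mrap (0.936) and Adig (0.93), named after their values were seen, followed the 10 closely. Their means of 0.661 and 0.814 CPM lay below the 1 CPM limit of the ranking. Among the most abundant genes of the list, Pck1 (mean 2915 CPM) had -0.319, Scd1 (711 CPM) 0.039 and Lpl (577 CPM) 0.476. The medians were 0.299 for the receptors, 0.0818 for the brown adipocyte genes, 0.224 for progenitor and fascia genes, 0.332 for endothelial, 0.17 for macrophage and 0.143 for kidney markers, and -0.000774 over all tested genes. Mesothelial and urothelial markers had a median of 0.168, with a range from -0.331 for Lrrn4 to 0.782 for Upk3b. These medians are descriptions of 12 libraries, with no test.

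**Figure D5:**
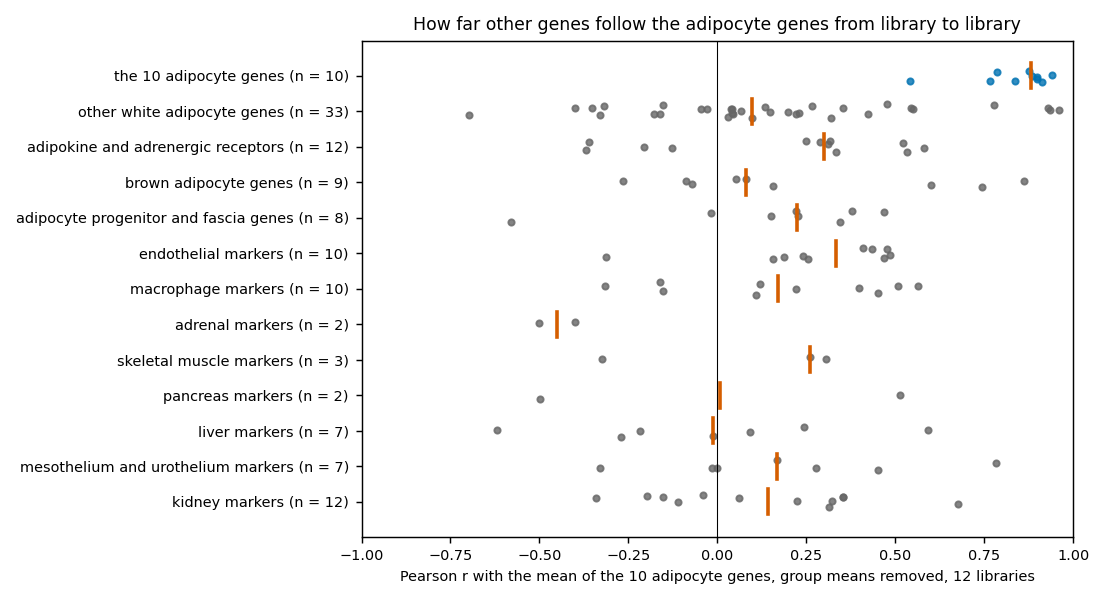
Pearson's r (x axis) of each gene with the mean standardised level of the 10 adipocyte genes over 12 libraries after group means were removed, with 1 point per gene, 1 row per list and a bar at the list's median. The 10 genes have a median of 0.88, in part because they form the mean, and the other lists spread around medians from 0.0818 to 0.332 for the lists given in the text.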

How the data were processed

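Bulk RNA of 12 kidney samples was sequenced by the authors. They deposited raw counts per gene and, in another table, FPKM of these genes. Per the submitters' processing notes, HTSeq, DESeq2 and build GRCm39 were used; aligner, versions and strandedness: not given in the sources used here. Gene identifiers, coordinates and lengths were those of the deposited count table.

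The 10 genes and the 12 other gene lists were chosen with earlier results of these data known. Counts were tested with edgeR 4.0.16 (R 4.3.3): filterByExpr (minimum count 10, minimum total 15), TMM scaling, and a quasi-likelihood F-test with all 12 libraries in 1 fit and group as the single term. Benjamini-Hochberg adjustment ran over 16947 genes, with a threshold of 0.05; SE was taken as |log2 fold change| over the square root of F. CPM are TMM-scaled. Likeness used log2 CPM with a prior count of 2. The scripts were tested on simulated data.

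Named genes were the 10, the 5 genes with the smallest p per list and comparison among those called, the first 2 of each list, and the 10 nearest in likeness, of which 1 is not reported here. Alternatives were DESeq2 1.42.0, its size factors, upper quartile scaling, no filter, 1 CPM in 4 samples, a replicate block, gene length offsets, limma 3.58.1 on log2(FPKM + 1) or log2(FPKM + 0.1), fits of the 2 groups compared, and leaving out each library; the joint removal of UC replicates 1 and 2 was added after seeing the data. Antisense and overlapping genes cannot be told apart without strand.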

Additional observations from a re-analysis of the deposited data

Results flagged for a closer look

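Among the 30 groups of 4 values that the 10 adipocyte genes form, 4 held a library that stood apart from the other 3 of its group by more than Dixon's 95% limit on the gap to the nearest value over the group's range; chance flags about 1 in 20 groups. Plin1 in UC replicate 2 was at 0.184 CPM, below the next UC value of 0.810 CPM (gap over range 0.845). Adrb3 in UC replicate 4 was at 0.962 CPM, above the next UC value of 0.264 CPM (0.833). In AKI replicate 3, Retn was at 3.64 CPM, above the next AKI value of 1.06 CPM (0.884), and Thrsp was at 18 CPM, above the next AKI value of 4.06 CPM (0.956). AKI replicate 3 was also the highest AKI library for 8 of the 10 genes.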

How the results depend on the processing

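Among the counts over all genes, over the adipocyte genes and over the other white adipocyte genes, and in likeness, these moved by over 1.5 times. In pFUS_UC against UC, genes called were 0 with edgeR, 44 with DESeq2, 13 with no filter, 2 with the replicate block and 0 to 1 with each library left out (1 without pFUS_UC replicate 4), and other white adipocyte genes called were 0 with edgeR and 2 with DESeq2. In UC against AKI without UC replicates 1 and 2, genes called were 5414 against 8210, and adipocyte genes called were 2 against 4; with each library left out, adipocyte genes called were 3 to 5 and genes called 7090 to 8443. In pFUS_UC against AKI, adipocyte genes called were 1, with the replicate block 2 (Plin1, -0.78, adjusted p = 0.0438) and with each library left out 1 to 2. Of the 10 genes nearest in likeness, 4 were shared after group means were removed. Counts over the other lists were compared with the first fit for each combination of list, comparison and alternative. They were within 1.5 times of it in 699 combinations and outside it in 60. These include pFUS_UC against UC, where the first fit called no gene of any list.

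Signs turned in values that were not called. In pFUS_UC against AKI, Adipoq (0.10) had -0.30 with gene length offsets, -0.019 with limma on log2(FPKM + 0.1) and -0.27 to 0.39 with each library left out; Lep (0.10) had -0.0083 with limma on log2(FPKM + 0.1) and -0.22 to 0.49; Cidec (-0.26) had -0.67 to 0.038. In UC against AKI, Fabp4 (-0.40) had 0.18 and Retn (-0.70) 0.066 without UC replicates 1 and 2, and Retn had -1.21 to 0.15 with each library left out. The cause was not tested. In pFUS_UC against UC, all adipocyte genes kept a positive value in all alternatives, although Lep left the test at 1 CPM in 4 samples, and limma on log2(FPKM + 1) gave smaller values for Plin1 (0.77) and Adrb3 (0.55), as its pseudocount compresses low genes.

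Of 228 values of the 10 genes under the alternatives in UC against AKI, 212 kept direction and side of the threshold. Of 229 such values in pFUS_UC against AKI, 216 did. Upper quartile scaling shifted the median of all genes by 0.14 in pFUS_UC against AKI and 0.12 in UC against AKI. Correlations of same-numbered libraries' deviations were -0.165 to 0.147. The sum of the 10 adipocyte genes was lowest in replicate 2 and highest in replicate 3 of every group, so whether replicate numbers pair the samples is not settled. The replicate block gave 7044 and 7791 genes called in pFUS_UC against AKI and UC against AKI, and 4 adipocyte genes in UC against AKI. Depth limits Lep and the UC values of Adipoq, Plin1, Retn and Adrb3, which rest on few counts. Cidec had 4 and 7 counts in UC replicates 1 and 2.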
